A study of Homo sapiens with 5 samples.

Results

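The genes described here are 47 protein-coding neighbours on the short arm of human chromosome 5, in bands p13 to p12, taken in chromosome order from NPR3 to MRPS30. The region was chosen by the low signals of DAB2, GHR, SELENOP and TMEM267 in PRL-1 cells, and the question was whether these low signals extended to the 43 genes listed around them. Members were found by symbol, current or older, among the probe sets of an Affymetrix HG-U133 Plus 2.0 array, each of which measures a transcript by a group of short probes. Of the 47 genes, 44 had at least 1 probe set that carried no other gene symbol (119 probe sets), and 37 had at least 1 that reached a signal of 100 on at least 2 arrays (83 probe sets, called tested below). These compare with 33818 tested probe sets of 54675 on the array, and with 14546 measured genes.

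HEK293, a human line that came from embryonic kidney, had been stably transfected with PRL-1 or with the empty pcDNA4 vector, and both lines were grown in DMEM with fetal bovine serum. PRL-1 is the product of PTP4A1, a small prenylated tyrosine phosphatase. There were 3 arrays of vector cells and 2 arrays labelled PRL-1, since the authors removed another PRL-1 array whose RNA showed no raised PRL-1 by qRT-PCR. Each group is 1 stable line, so PRL-1 and any other difference between the lines, including differences in chromosome content, cannot be told apart, and the p-values reflect only how much cultures of these lines varied.

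Growth hormone binds GHR, a class I cytokine receptor that signals through JAK2 and STAT5, and the same stretch of chromosome 5 holds the receptors PRLR, IL7R, LIFR and OSMR of that family. DAB2 is an adaptor that links receptors of the LDL receptor family to clathrin, and SELENOP is a secreted protein that carries selenium between tissues. TMEM267 is a little studied membrane protein. Genes that lie side by side can share a level of expression because they share a copy number, a chromatin domain or a start region, and they can equally be regulated apart.

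The 4 PTP4A1 probe sets that were tested gave differences of 0.06 to 0.15 on the log2 scale (PRL-1 minus vector, limma adjusted p from 0.737 to 0.892). In the probe set 200730_s_at the signals were 2750, 2794 and 2825 on the vector arrays and 3270 and 2837 on the arrays labelled PRL-1. Vector replicate 3 was the array least like the rest, with correlations of 0.938 to 0.947 of its log2 signals with theirs, against 0.954 to 0.964 among the rest, and it had the highest median signal (166, against 124.2 to 143.5). The neurofilament gene NEFL, a marker of HEK293 cells, reached 100 on every array in 3 of 3 probe sets, whereas NEFM stayed under 100 in 2 of 2. The hepatocyte marker ALB (4 of 4 probe sets) and the leukocyte marker PTPRC (5 of 5) were under 100 on every array, although some probe sets of COL1A1 (2 of 5), HBB (3 of 4) and PECAM1 (1 of 5) reached 100 on all of them.

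Because the 4 genes that define the region were low together, the 250 bases before the annotated start of each are shown 5′ to 3′ on the gene's strand, from RefSeq on GRCh38.p14, with every CG in capitals and, for SELENOP, the TATAAA motif in capitals too. CG content marks the CpG island promoters of widely expressed genes, and TATAAA the promoters of many tissue-restricted ones. DAB2 at chr5:39424981-39425230, minus strand, holds 18 CG.
DAB2: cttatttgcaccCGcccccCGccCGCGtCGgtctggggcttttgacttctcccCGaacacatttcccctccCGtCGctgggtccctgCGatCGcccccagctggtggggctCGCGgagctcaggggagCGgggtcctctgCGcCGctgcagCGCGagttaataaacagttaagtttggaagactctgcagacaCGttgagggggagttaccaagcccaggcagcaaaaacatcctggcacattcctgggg
GHR at chr5:42423189-42423438, plus strand, holds 7 CG. It is 1 of several start regions that this gene is known to use.
GHR: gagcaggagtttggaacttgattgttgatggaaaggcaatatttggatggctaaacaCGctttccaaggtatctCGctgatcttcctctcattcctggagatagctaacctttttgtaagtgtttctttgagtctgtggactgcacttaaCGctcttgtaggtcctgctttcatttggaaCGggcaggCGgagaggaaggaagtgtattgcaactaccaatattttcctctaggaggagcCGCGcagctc
SELENOP at chr5:42811893-42812142, minus strand, holds 0 CG and has TATAAA beginning 31 bases before the start.
SELENOP: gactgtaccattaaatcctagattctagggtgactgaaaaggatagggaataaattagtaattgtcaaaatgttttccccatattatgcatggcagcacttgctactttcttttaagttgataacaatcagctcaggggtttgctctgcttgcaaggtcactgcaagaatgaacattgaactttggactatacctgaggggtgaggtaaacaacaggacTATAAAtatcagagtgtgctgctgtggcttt
TMEM267 at chr5:43484388-43484637, minus strand, holds 12 CG.
TMEM267: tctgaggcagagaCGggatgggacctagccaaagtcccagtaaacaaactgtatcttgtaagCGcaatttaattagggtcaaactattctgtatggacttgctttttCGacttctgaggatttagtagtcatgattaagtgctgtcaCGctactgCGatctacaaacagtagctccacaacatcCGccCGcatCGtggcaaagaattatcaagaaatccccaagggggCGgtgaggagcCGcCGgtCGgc
These 4 windows therefore range from 0 to 18 CG, and of the 4 only the SELENOP window held TATAAA, searched as those letters on both strands. Across 15843 protein-coding promoter windows of the same length the median was 17 CG and 9.35% held TATAAA. The 43 neighbours had a median of 16 CG, and 5 of them (11.6%) held TATAAA, namely C1QTNF3, RANBP3L, HMGCS1, IL7R and C7. Such a match describes the letters of the window and is not a measured site.

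GHR was read by 1 probe set, at 437, 323 and 542 on the vector arrays and at 35.0 and 47.0 on the PRL-1 arrays. Both PRL-1 values lay under 100, and with them set to 100 the signal was at least 4.25-fold lower in PRL-1 cells (log2 difference -3.39). In RNA from a whole culture, fewer cells that express a gene and less RNA per cell cannot be told apart. These values chose the region, so they are given as a description and carry no test, as do those of the next 3 genes.

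DAB2 had 7 probe sets, 5 of them tested, and they did not behave alike. In 201279_s_at the vector arrays gave 270, 236 and 385 and the PRL-1 arrays 17.6 and 23.5, at least 2.9-fold lower. In 210757_x_at, the brightest, they gave 312, 271 and 363 against 73.7 and 166 (log2 difference -1.50). The groups did not overlap in these 2 probe sets, nor in 201278_at (-0.74). In 201280_s_at the vector arrays, at 120, 52.0 and 107, were too close to 100 for a fold to be given against PRL-1 arrays of 4.94 and 38.8. In 232898_at, however, the vector arrays gave 112, 199 and 183 and the PRL-1 arrays 140 and 170 (-0.05), and the groups overlapped. Leaving out PRL-1 replicate 1 moved 210757_x_at to -0.92, and leaving out PRL-1 replicate 2 moved it to -2.09.

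SELENOP remained strongly expressed in PRL-1 cells while lying at less than the vector level. Its bright probe set 201427_s_at gave 2985, 2931 and 4525 on the vector arrays (3481 ± 905, SD, n = 3) and 1022 and 1014 on the PRL-1 arrays (1018 ± 6.0, SD, n = 2), a log2 difference of -1.74 with no overlap. The dim 229620_at, which gave 69.6, 112 and 125 against 40.1 and 92.6, did overlap (-0.70). CCDC152, which is annotated in the same stretch of the chromosome as SELENOP and is not among the 47 genes, gave 1379, 1691 and 3061 against 1738 and 1958 in the probe set 237475_x_at (log2 difference -0.06, adjusted p = 0.962). Its groups overlapped, and it is named for its position after its values were seen.

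TMEM267 had the smallest difference of the 4 genes in its brightest probe set. In 219029_at the vector arrays gave 739, 749 and 761 and the PRL-1 arrays 427 and 409. From the difference in mean log2 signal (-0.84), TMEM267 in PRL-1 cells stood at 55.7% of the vector level. Its other probe sets, 1557828_a_at and 238635_at, gave differences of -0.56 and -0.62. The groups were separate in all 3 probe sets.

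**Figure D1:**
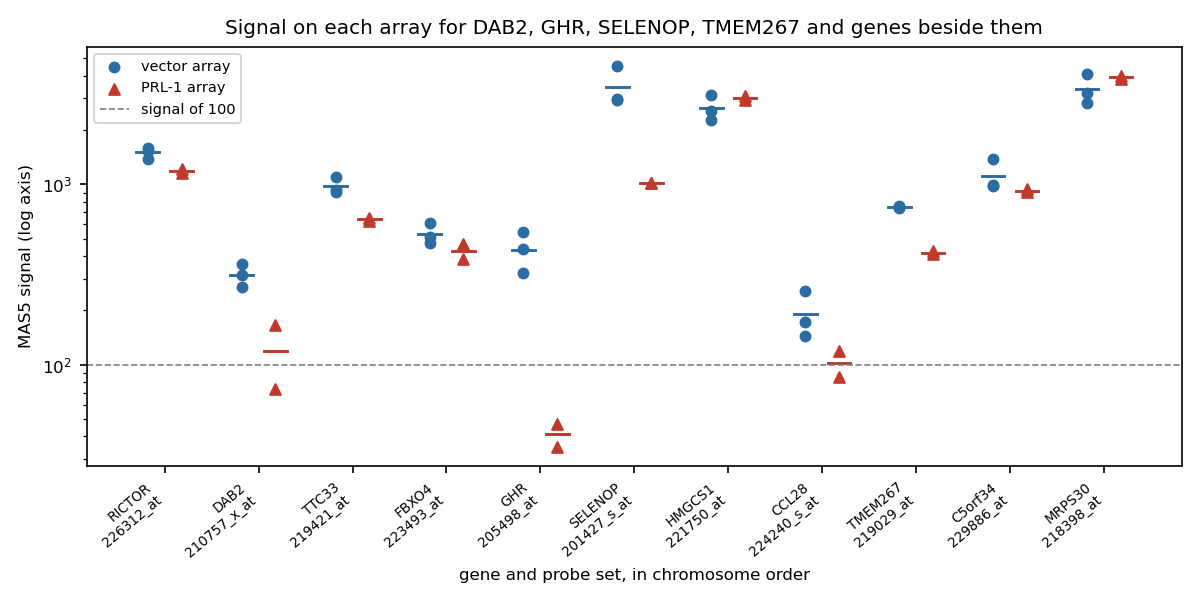
Each point is the MAS5 signal of 1 array (logarithmic y axis) for the brightest probe set of the gene named below it, in chromosome order; circles are the 3 vector arrays, triangles the 2 PRL-1 arrays, horizontal bars the group means and the dashed line a signal of 100. The PRL-1 arrays of GHR sit at 35.0 and 47.0 and those of DAB2 at 73.7 and 166, those of SELENOP and TMEM267 stay above 400, and of the neighbours shown CCL28 and TTC33 differ most.

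Among the 43 neighbours, 33 genes with 72 tested probe sets could be compared. At an adjusted p of 0.05 in limma, 0 of the 72 were called lower and 0 called higher, against 0.133% and 0.0591% of all tested probe sets (45 and 20 of 33818). The smallest adjusted p of a neighbour was 0.235. At an unadjusted p under 0.05, 11 of the 72 were lower (15.3%, against 5.33% of all tested probe sets) and 2 were higher (2.78%, against 4.39%). The methods' t-test was run here on these same 33818 probe sets, and not on the presence-called set that the study tested. On that input it called 0 neighbour probe sets, and 0 on the whole array, at an adjusted p of 0.05 or of 0.1, with 12 neighbour probe sets (16.7%, against 8.59% of all) at an unadjusted p under 0.05. The groups did not overlap in 30 of the 72, of which 25 were lower (34.7%, against 16.1% of all) and 5 higher (6.94%, against 12.8%). PRL-1 lay below vector in 55 of 72 (76.4%, against 55.1% of all), and the median log2 difference was -0.16, against -0.04 over all probe sets. The neighbours therefore leaned low by a small amount in their median, without a called probe set. With so few calls on the whole array, 0 calls in 72 probe sets say little about the neighbours.

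**Figure D2:**
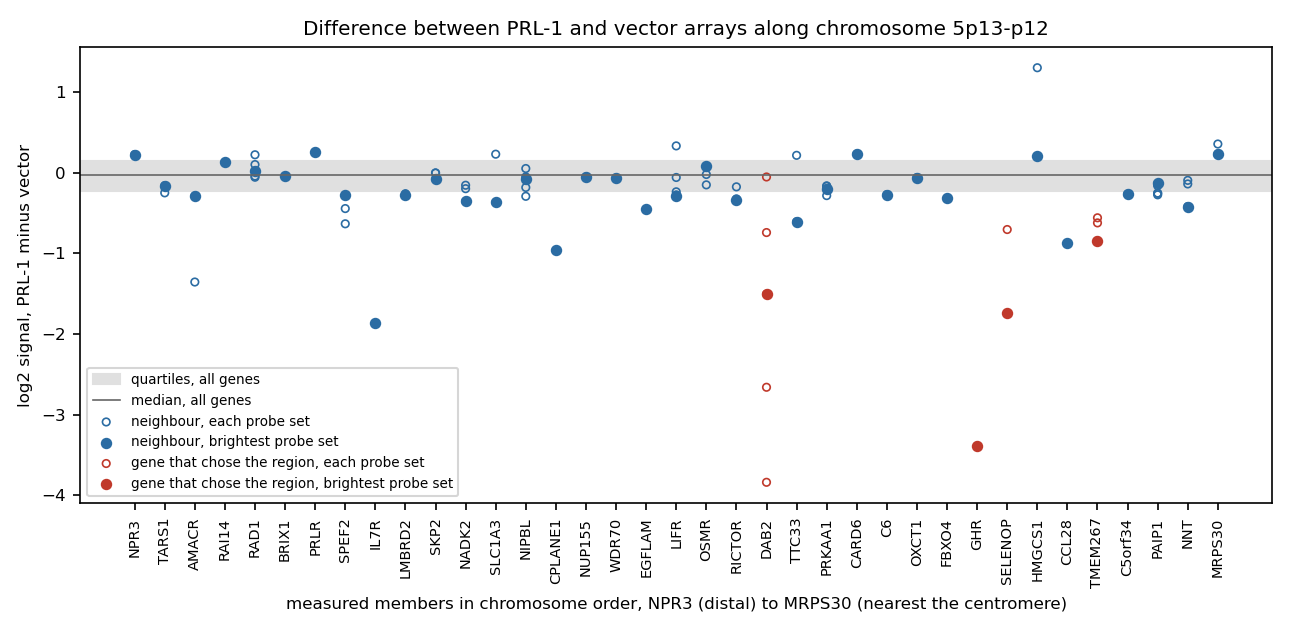
The log2 difference in signal (PRL-1 minus vector, y axis) of each tested probe set is plotted for the 37 measured genes in chromosome order; filled circles are the brightest probe set of a gene and open circles the rest, red for the 4 genes that chose the region and blue for neighbours, with the median and quartiles of all 14546 genes as a grey line and band. The filled red points run from -3.39 for GHR to -0.84 for TMEM267, the neighbours have a median of -0.20, and of the neighbours only IL7R lies below -1 in its brightest probe set.

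Around DAB2 the nearest measured genes were RICTOR, the scaffold of the mTORC2 kinase complex, on one side and TTC33, a little studied protein, and PRKAA1, a catalytic subunit of AMP-activated kinase, on the other. RICTOR 226312_at gave 1538, 1382 and 1583 on the vector arrays and 1151 and 1223 on the PRL-1 arrays (log2 difference -0.34 ± 0.12, SE, adjusted p = 0.426), and its other tested probe sets gave -0.32 and -0.18. The groups were separate in 226312_at and 228248_at and overlapped in 226310_at. TTC33 219421_at, at 903, 926 and 1101 against 651 and 626, had the smallest adjusted p of all neighbours (-0.61 ± 0.14, SE, adjusted p = 0.235), while its dimmer probe set 231479_at gave 0.21 with overlapping groups. PRKAA1 gave -0.28 to -0.16 in 4 probe sets (adjusted p from 0.632 to 0.836). The adaptor FYB1, the complement component C9 and the prostaglandin receptor PTGER4, which lie nearer still, were under the signal rule and give no reading at this end. The 95% intervals of the RICTOR (-0.61 to -0.06) and TTC33 (-0.93 to -0.29) differences in 226312_at and 219421_at did not reach -1. That of the dim TTC33 probe set 231479_at (-1.22 to 1.65) did. A difference of -1 is larger than that of TMEM267 in its brightest probe set (-0.84). The interval of TTC33 219421_at holds that TMEM267 value, so it does not set TTC33 apart from all 4 genes that chose the region.

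On the side of GHR away from SELENOP lie OXCT1, which activates ketone bodies for use in mitochondria, and FBXO4, a substrate receptor of ubiquitin ligases. OXCT1 202780_at gave 1321, 1385 and 2295 against 1517 and 1579, with overlapping groups (log2 difference -0.06, adjusted p = 0.953). FBXO4 223493_at gave 511, 471 and 607 against 464 and 385, which did not overlap (-0.32 ± 0.18, SE, adjusted p = 0.606). Its 95% interval ran from -0.72 to 0.08, and that of OXCT1 from -0.57 to 0.45. PLCXD3, the member next to OXCT1, was under the signal rule.

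HMGCS1, the enzyme that makes HMG-CoA for cholesterol synthesis, is the first measured member beyond SELENOP, and it was not low. Its brighter probe set 221750_at gave 2281, 2537 and 3108 on the vector arrays and 3084 and 2952 on the PRL-1 arrays (log2 difference 0.20 ± 0.14, SE, adjusted p = 0.690), with overlap. The probe set 205822_s_at gave 357, 1172 and 1694 against 2150 and 2246 (1.30 ± 0.53, SE, adjusted p = 0.474). The PRL-1 arrays were the highest there, but the vector arrays spread over a wide range. ZNF131, a zinc finger protein that lies between SELENOP and HMGCS1, has 5 probe sets that also carry another symbol and was not read.

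TMEM267 is flanked by CCL28, a chemokine of mucosal tissues, and by C5orf34, which is little studied. CCL28 224240_s_at gave 255, 145 and 173 on the vector arrays and 119 and 86.0 on the PRL-1 arrays, which did not overlap (log2 difference -0.87 ± 0.35, SE, adjusted p = 0.474). C5orf34 229886_at gave 1383, 982 and 990 against 936 and 901 (-0.27 ± 0.17, SE, adjusted p = 0.663), also without overlap. PAIP1, a partner of the poly(A)-binding protein in translation, gave -0.27 to -0.13 in 5 probe sets, of which 3 did not overlap. NNT, the mitochondrial transhydrogenase that makes NADPH, gave 2602, 2643 and 2009 against 1901 and 1693 in 202783_at (-0.42 ± 0.15, SE, adjusted p = 0.421), and -0.10 and -0.14 in its other tested probe sets. Without vector replicate 3 that NNT probe set was called lower (-0.55, adjusted p = 0.0456).

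Farther along the interval the smallest adjusted p belonged to CPLANE1, a protein of cilium assembly, at 209, 210 and 318 on the vector arrays and 121 and 126 on the PRL-1 arrays in 219381_at (log2 difference -0.96 ± 0.28, SE, adjusted p = 0.321). NADK2, the mitochondrial NAD kinase, gave 1367, 1339 and 1348 against 1040 and 1075 in 228594_at (-0.35, adjusted p = 0.378), and -0.16 and -0.20 in its other probe sets. SLC1A3, a glial glutamate transporter, gave 1535, 1559 and 1399 against 1126 and 1193 in 202800_at (-0.37, adjusted p = 0.379), with 0.23 in its dim probe set 1569054_at. In the 3 probe sets given with their signals the groups were separate, by an amount under that of GHR. CPLANE1 (-0.96), CCL28 (-0.87) and IL7R (-1.87), however, lay lower in their brightest probe sets than TMEM267 did in its own (-0.84). These 3 neighbours gave dimmer signals than TMEM267, and none was called. AMACR, which racemizes branched fatty acids, gave 142, 94.2 and 144 against 35.0 and 67.4 in 217111_at (at least 1.24-fold lower with the PRL-1 arrays set to 100, adjusted p = 0.466) and -0.29 in 217113_at. LMBRD2, a membrane protein, gave -0.28 in 226779_at (adjusted p = 0.570), and NIPBL, which loads cohesin onto chromatin, gave -0.29 in 207108_s_at (adjusted p = 0.597) and -0.18 to 0.05 in its other probe sets.

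MRPS30, a protein of the mitochondrial ribosome and the member nearest the centromere, lay in the other direction. Its probe set 227600_at gave 867, 912 and 953 on the vector arrays and 1154 and 1175 on the PRL-1 arrays (log2 difference 0.36 ± 0.12, SE, adjusted p = 0.408). The probe sets 222275_at and 218398_at gave 0.22 (adjusted p = 0.601) and 0.23, and the groups overlapped in the latter.

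Of the other cytokine receptors in the same stretch, relatives of GHR, 0 had a called probe set. Over all tested probe sets 0.133% were called lower and 0.0591% higher, so 0 calls in so few probe sets say little. Their differences were not tested against each other. IL7R, the interleukin-7 receptor of lymphocytes, was near the limit of detection, at 67.7, 145 and 145 on the vector arrays and 29.7 and 31.99 on the PRL-1 arrays in 205798_at (log2 difference -1.87 ± 0.67, SE, adjusted p = 0.425). With the PRL-1 arrays set to 100 it was at least 1.12-fold lower. LIFR, the receptor of leukemia inhibitory factor, gave 1249, 1133 and 1204 against 995 and 959 in 225575_at (-0.29 ± 0.12, SE, adjusted p = 0.483), and its other 4 tested probe sets ranged from -0.28 to 0.33. OSMR, the oncostatin M receptor, gave 371, 400 and 381 against 402 and 410 in its brightest probe set (0.08, adjusted p = 0.901). PRLR, the prolactin receptor, had 1 tested probe set of 7, at 54.9, 72.7 and 125 against 78.6 and 114 (0.25, adjusted p = 0.913). Of these 4 receptors, LIFR and OSMR were above 100 on every array in their brightest probe sets, and IL7R and PRLR were not.

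The remaining measured neighbours lay between -0.63 and 0.23 in every tested probe set, with adjusted p from 0.685 to 0.997. They comprise the natriuretic peptide clearance receptor NPR3, the threonyl-tRNA synthetase TARS1, the actin-associated RAI14, the checkpoint protein RAD1, the ribosome assembly factor BRIX1, the sperm flagellar SPEF2, the cell-cycle F-box protein SKP2, the nucleoporin NUP155, WDR70, the matrix protein EGFLAM, CARD6 and the complement component C6. Both pairs of members whose start sites lie within 1000 bases on opposite strands had small differences in their brightest probe sets, RAD1 at 0.02 beside BRIX1 at -0.05, and LMBRD2 at -0.28 beside SKP2 at -0.08. Under the signal rule were RANBP3L, FYB1, C9, PTGER4, C7, PLCXD3 and FGF10. C1QTNF3 and GDNF had no probe set in the annotation used.

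Grouped by role, with the brightest probe set for each gene, all 4 of the kinase and ubiquitin ligase genes (RICTOR, PRKAA1, SKP2 and FBXO4) were below 0, with a median of -0.26. So were 4 of 5 metabolic and mitochondrial genes (AMACR, NADK2, OXCT1 and NNT but not HMGCS1, median -0.29). The genes of chromatin, checkpoint, ribosome and translation were closer to even, with 4 of 6 below 0 and a median of -0.06. Over all 33 measured neighbours, 25 (75.8%) were below 0 with a median of -0.20 and quartiles of -0.34 and -0.05, against 55.2% and a median of -0.03 over 14546 genes. The 4 genes that chose the region had a median of -1.62.

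A list of 16 further protein-coding genes was then taken from the gene table by position alone, being all others between NPR3 and MRPS30. Of these, 11 were measured, with 20 tested probe sets. In limma 0 were called lower and 0 higher, against 0.133% and 0.0591% of all tested probe sets, so 0 of 20 says little. At an unadjusted p under 0.05 there was 1 lower (5%, against 5.33% of all tested probe sets) and 0 higher (against 4.39%). PRL-1 lay below vector in 19 of 20 (95%, against 55.1% of all), with a median of -0.25. RPL37, a ribosomal protein, gave 1023, 1105 and 1125 against 897 and 861 in 224763_at (log2 difference -0.30, adjusted p = 0.476). RIMOC1 gave -0.39 (226159_at, adjusted p = 0.520), and DNAJC21, a co-chaperone of ribosome assembly, -0.25 (238337_s_at, adjusted p = 0.552). Of these 11 genes, 10 were below 0 in their brightest probe set. On single arrays, each gene's log2 signal minus its mean over the 5 arrays was taken. The median over the 11 genes was -0.051, -0.005 and 0.331 on the vector arrays and -0.185 and -0.004 on the PRL-1 arrays. A small lean was thus present in genes that had not been listed, but it was largest against vector replicate 3. PRL-1 replicate 2 was not below vector replicates 1 and 2.

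The lean was also seen outside the interval. On the short arm distal to NPR3, 62 of 72 measured genes (86.1%) were below 0, with a median of -0.26 and quartiles of -0.43 and -0.10. On the long arm of chromosome 5, 320 of 534 genes (59.9%) were below 0, with a median of -0.05. The 20 measured genes nearest NPR3 on its distal side had a median of -0.24 (19 below 0), and the 20 next to MRPS30 on its other side -0.07 (11 below 0). The median of the neighbours was 0.06 above that of the distal short arm, but 0.014 below it (-0.27 against -0.26) without _x_at and _s_at probe sets, and no test of the difference was made.

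Dim genes spread more widely than bright ones, so the same values were taken over genes with a mean signal of at least 500. The 21 bright neighbours had a median of -0.13 (17 below 0), the 37 bright genes of the distal short arm -0.25 (33 below 0), the 335 of the long arm -0.02 (187 below 0) and the 7876 of all chromosomes 0.01. Whole chromosomes also differed in their medians over all measured genes, from -0.17 for chromosome 10 to 0.16 for chromosome 20, and chromosome 5 stood at -0.08, rank 5 from the lowest of 23. Whether a difference in copy number between the lines moves with these medians was not tested, and DNA was not analysed here.

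**Figure D3:**
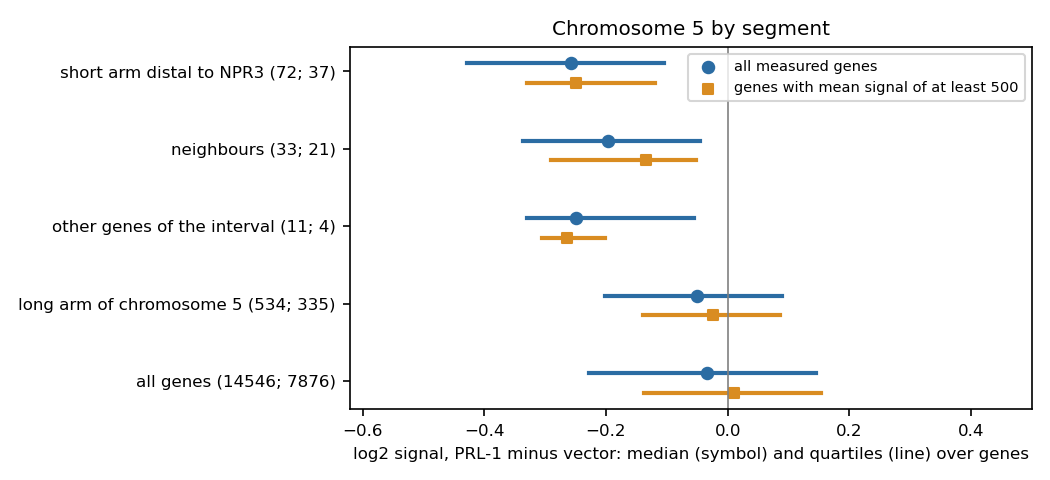
Symbols mark the median and lines the quartiles, over genes, of the log2 difference in signal (PRL-1 minus vector, x axis) for 4 groups of chromosome 5 genes and for all genes; blue is all measured genes and orange those with a mean signal of at least 500, with the number of each in parentheses. The medians of the neighbours and of the distal short arm lie to the left of those of the long arm and of all genes.

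Across single arrays, the median over the bright neighbours (each gene's log2 signal minus its mean over the 5 arrays) was 0.11, 0.10 and -0.02 on the vector arrays and -0.07 and -0.08 on the PRL-1 arrays. On the distal short arm these medians were 0.10, 0.17 and 0.05 against -0.12 and -0.15, and on the long arm 0.04, 0.04 and -0.04 against 0.00 and -0.03. Among these bright genes the vector and PRL-1 arrays did not overlap in either short-arm group and overlapped on the long arm. Over all measured genes they overlapped for the other genes of the interval, as given above, but not for the neighbours, distal short arm or long arm. The long-arm medians were 0.025, 0.040 and 0.017 against -0.030 and -0.026, and the neighbour medians 0.108, 0.036 and 0.127 against -0.114 and -0.085. Vector replicate 3 was thus the lowest vector array for the bright neighbours and the highest for all measured neighbours.

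**Figure D4:**
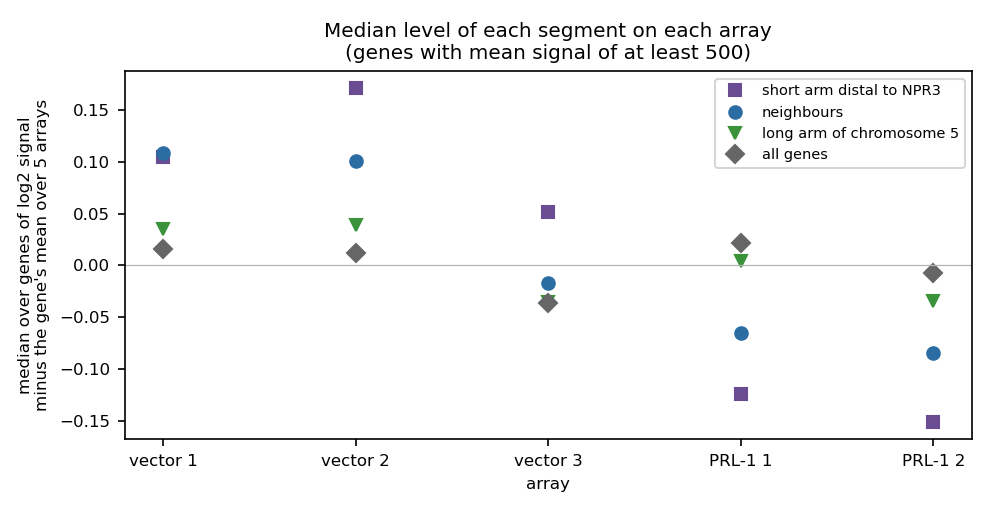
The y axis gives, for each array on the x axis, the median over genes with a mean signal of at least 500 of the log2 signal minus the gene's mean over the 5 arrays; symbols tell the 4 groups of genes apart. Both short-arm groups are lower on the 2 PRL-1 arrays than on the 3 vector arrays, whereas the long arm and all genes stay within 0.04 of 0.

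The partners with which the low genes work were read from 3 lists. Of 19 genes around GHR and its relatives in JAK-STAT signalling, 18 were measured. Of their 47 probe sets, 0 were called lower and 0 higher, against 0.133% and 0.0591% of all tested probe sets. With so few calls on the whole array, 0 calls in a list of this size say little about it. At an unadjusted p under 0.05, 3 were lower (6.38%, against 5.33% of all) and 1 higher (2.128%, against 4.39%). All 3 were probe sets of SOCS2 and IGF1R. Over genes the median was -0.06, with 10 of the 18 below 0. SOCS2, an inhibitor of GHR signalling that is induced by STAT5, gave 442, 459 and 460 on the vector arrays and 301 and 308 on the PRL-1 arrays in 203372_s_at (log2 difference -0.57 ± 0.16, SE, adjusted p = 0.294). The groups were separate. CISH, another gene of this list, lay in the other direction, at 315, 348 and 371 against 453 and 422 in 221223_x_at (0.35, adjusted p = 0.549). Its groups were separate there and overlapped in 223377_x_at (0.19), and it was named after its values were seen. IGF1R, the receptor of insulin-like growth factor 1, gave -0.49 (203628_at, adjusted p = 0.434), and -0.30 to 0.04 in its other tested probe sets. PTPN11, the phosphatase SHP2, gave 0.50 in the dim 205867_at (adjusted p = 0.451). Its other tested probe sets gave -0.01 to 0.29, with 0.19 in the brightest, 212610_at.

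Of 19 genes that act with DAB2 in endocytosis, 16 were measured. Of their 41 probe sets, 0 were called lower and 0 higher, against 0.133% and 0.0591% of all, which again says little. At an unadjusted p under 0.05, 0 were lower (against 5.33% of all) and 5 higher (12.2%, against 4.39%). All 5 were probe sets of AP2S1 and LRP2, so they do not stand for 5 genes. Over genes the median was -0.01, with 8 of the 16 below 0. AP2S1, the small subunit of the clathrin adaptor AP-2, gave 2467, 2663 and 2483 against 3489 and 3104 in 202120_x_at (0.38, adjusted p = 0.331). LRP2, the receptor megalin that DAB2 carries in kidney tubules, gave 382, 256 and 281 against 489 and 441 in 230863_at (0.62, adjusted p = 0.407), while DAB1, the neuronal relative of DAB2, gave 58.1, 150 and 105 against 45.4 and 30.8 in 228329_at (adjusted p = 0.570), too near 100 for a fold to be given.

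All 21 genes of selenium handling were measured. Of their 40 probe sets, 0 were called lower and 0 higher, against 0.133% and 0.0591% of all, which again says little. At an unadjusted p under 0.05, 4 were lower (10%, against 5.33% of all) and 0 higher (against 4.39%). Over genes the median was 0.03, with 9 of the 21 below 0. GPX1, the cytosolic glutathione peroxidase, gave 11295, 11845 and 11039 on the vector arrays and 8697 and 7479 on the PRL-1 arrays in 200736_s_at (-0.50 ± 0.11, SE, adjusted p = 0.229), with separate groups. The selenoproteins of the endoplasmic reticulum SELENOS and SELENOK gave -0.33 (223209_s_at, adjusted p = 0.358) and -0.34 (223070_at, adjusted p = 0.470).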

How the data were processed

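Total RNA of 5 cultures was read on 1 array each. The table deposited by the authors holds MAS5 signals from the affy library, that is, 1 linear intensity for each probe set. MAS5 subtracts a mismatch estimate and scales each array to a common trimmed mean (500 on all 5 arrays after trimming 2% at each end), so a signal gives no depth. Low signals are noisy, and the number of arrays limits precision. A linear model of log2 signal on group was fitted in R 4.3.3 by limma 3.58.1 (lmFit, eBayes with trend) over all 33818 probe sets that reached 100 on at least 2 arrays. Tests were two-sided with Benjamini-Hochberg adjustment over all of them and a threshold of 0.05. Control probe sets (62) were left out. Names came from the platform annotation, updated to the GRCh38.p14 gene table, and 1801 probe sets with several symbols and 11721 not listed there were not used. A gene was represented by its probe set of highest mean log2 signal. At least N-fold sets a group whose arrays are all under 100 to 100. The 4 genes that chose the region were given no p-value. Members and lists were chosen with earlier results of these data known. Named were those 4, up to 3 members on each side of each, cytokine receptors, the 10 further neighbour probe sets with the smallest adjusted p, and 3 genes per partner or position list. CCDC152 and CISH were named in addition. Alternatives were another signal rule or none, a replicate block, an offset of 32 before log2, median centring, quantile normalization, no trend, the methods' t-test, removal of _x_at and _s_at probe sets, the mean of a gene's probe sets and each array left out. Where a PRL-1 array was left out, the lone array's spread was taken from the vector group. The fit was tested on simulated data. There it recovered 0.4% of changes of 0.5 on the log2 scale, 20% of changes of 1 and 67.6% of changes of 2.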

Additional observations from a re-analysis of the deposited data

How the results depend on the processing

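Over 155 alternative values of the counts and medians, 130 kept their side or stayed within the spread, 25 moved and 0 reversed. Most of the 155 were counts that were 0 in the report. Such counts could not reverse and were likely to stay at 0, so these totals say little about how firm the results are. The replicate numbers did not pair the arrays (correlations of 0.06 and -0.06 between same-numbered arrays). With a replicate block, 448 probe sets were called on the array (65 in the report), with 1 neighbour lower (NNT 202783_at), 1 neighbour higher (HMGCS1 205822_s_at, log2 difference 1.76, adjusted p = 0.0278), 1 probe set of the other interval genes lower and 1 of the selenium list. Calls on the array were 9 without the trend, 0 by the methods' t-test, 41 without _x_at and _s_at probe sets, and 11 to 253 with 1 array left out (253 without vector replicate 3). With 1 array left out, 0 to 1 neighbour probe sets were called lower. The neighbours' median was -0.27 without the signal rule and -0.27 without _x_at and _s_at probe sets, and -0.19 to -0.11 with 1 array left out (-0.11 without PRL-1 replicate 1). Medians of the other segments were examined under these alternatives after the data had been seen: -0.31 to -0.19 for the distal short arm with 1 array left out, and for the long arm -0.0786 without the signal rule, -0.0309 after quantile normalization, -0.00888 after median centring and -0.0607 to -0.0343 with 1 array left out. Over 15 settings the neighbours' median stayed below the long arm's by 0.07 to 0.23, and relative to the distal short arm it ran from -0.014 to 0.126. An offset of 32 moved DAB2 201279_s_at to -2.62 and GHR to -2.65. Signals near 100 limit IL7R, AMACR, CCL28 and DAB1.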
